A study of Mus musculus with 4 samples.

Results

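The genes described here are 10 chemosensory genes of tuft cells, a rare cell type of the gut epithelium: Dclk1, Trpm5, Pou2f3, Gnat3, Gng13, Avil, Il25, Sh2d6, Plcg2 and Gfi1b. They were chosen by symbol from tables of expression per gene, in which 17762 genes were listed in at least 1 library. Of the 10, 9 were listed in at least 1 library, 5 passed the filter on low counts and were tested among 12769 genes, 4 were listed but too low to be tested, and Sh2d6 was listed in none. The tables came from adenomas, benign tumours of the gut, of ApcMin mice on a C57BL/6 background aged 110 days. All mice carried ApcMin, a mutation in the tumour suppressor Apc that gives rise to intestinal tumours. Of the 4 libraries, 2 are labelled ApcMin Strap WT (WT here, with intact Strap) and 2 ApcMin Strap KO (KO), called ApcMin StrapIEKO in the description of the series. What drives the deletion, and whether animals were pooled, was not given in the sources used here, and nothing says that the libraries came from separate animals, so p-values measure only the spread between these libraries. The comparison asks how these genes differ in ApcMin adenomas when Strap, whose product is known as an inhibitor of TGF-beta receptor signalling, is targeted.

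Tuft cells sense luminal contents with parts of the taste transduction pathway. A receptor acts through a G protein, gustducin, and phospholipase C releases calcium that opens the channel TRPM5. The transcription factor POU2F3 is needed for the lineage to form, and in the small intestine tuft cells are known as the epithelial source of interleukin 25, which acts on group 2 innate lymphoid cells in the defence against worms and protists. DCLK1 marks these cells in mouse intestine and its gene has been used to trace them in adenomas.

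Promoter sequence is shown for 3 members whose values took different courses: Avil, with the smallest p of the members; Trpm5, which was highest in WT replicate 2; and Plcg2, the tested member that was not lower in KO. Each run is the 250 bases before a start site in RefSeq (GRCm38.p6, the assembly of mm10), 5′ to 3′ on the strand of the gene. For Avil this is a start inside the gene span given below, not its first annotated base, so its matches belong to that internal start alone. Capitals mark matches to the motifs given after the sequences.
Avil, chr10:127000459-127000708, plus strand: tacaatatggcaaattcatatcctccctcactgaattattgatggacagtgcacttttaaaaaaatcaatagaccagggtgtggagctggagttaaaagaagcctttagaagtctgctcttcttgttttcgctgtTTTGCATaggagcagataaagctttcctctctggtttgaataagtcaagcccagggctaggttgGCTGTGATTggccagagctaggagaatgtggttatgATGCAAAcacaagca
Trpm5, chr7:143094643-143094892, minus strand: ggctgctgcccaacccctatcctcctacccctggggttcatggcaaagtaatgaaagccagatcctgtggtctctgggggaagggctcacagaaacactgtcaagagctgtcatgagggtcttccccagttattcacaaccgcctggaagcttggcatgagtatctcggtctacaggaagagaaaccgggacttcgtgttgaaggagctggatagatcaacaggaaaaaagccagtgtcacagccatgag
Plcg2, chr8:117498025-117498274, plus strand: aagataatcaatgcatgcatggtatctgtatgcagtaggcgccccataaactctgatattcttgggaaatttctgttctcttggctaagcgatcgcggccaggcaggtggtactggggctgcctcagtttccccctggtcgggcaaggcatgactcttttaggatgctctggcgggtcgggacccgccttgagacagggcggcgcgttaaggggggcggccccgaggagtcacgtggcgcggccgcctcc
The motifs, searched on both strands in windows of 300 bases, were the octamer ATGCAAAT bound by POU2 factors, its first 7 letters ATGCAAA, which lie within it, and AATCACNGC, a core bound by GFI factors. RefSeq held 10 such windows for 8 of the members, with none for Pou2f3 or Il25. The octamer was in 0 of these 10 windows and in 1.74% of all 32851 windows. ATGCAAA was in 1 of the 10, that of Avil, and in 4.63% of all windows. AATCACNGC was also in that of Avil alone and in 0.919% of all windows. In Avil the matches began 115 and 15 bases before the start for ATGCAAA, and 51 bases before it for AATCACNGC. A match describes letters and not a bound site.

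The libraries held between 14084831 and 15640941 expected counts each. Strap stood at 61.25 and 43.75 FPKM in WT replicates 1 and 2 and at 7.4 and 10.01 FPKM in KO replicates 1 and 2, so the KO label is matched by lower transcript in both KO libraries, and the log2 fold change was -2.57 (SE 0.26, edgeR adjusted p = 0.0942). FPKM gives a level per kilobase of transcript and per library size, so it can be compared between genes. The X-inactivation transcript Xist was at 54.74 and 10.52 FPKM in replicates 1 of WT and KO and at most 0.05 FPKM in replicates 2, while the Y-linked Ddx3y had the opposite distribution, and both patterns therefore occur in both genotypes. The labelled tissue is colon adenoma, yet genes of the small intestine were high in all 4 libraries (Apoa1 at 2888.56 to 8640.99 FPKM, Sis at 340.74 to 821.05), and colon genes were low (Car1 at most 3.81 FPKM, Aqp8 at most 0.59, with Hoxb13 listed in 1 library of 4). The 6 epithelial genes summed to 5874 and 7028 FPKM in WT and 6718 and 4808 FPKM in KO, against 0.51 to 3.04 FPKM for 6 fibroblast genes.

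WT replicate 2 stood apart in its epithelial lineages, and the fold changes of the tested members and the medians of the lists are therefore also given without it. All 7 goblet cell genes tested and all 6 Paneth cell genes were highest in WT replicate 2, and 6 of 7 absorptive cell genes were lowest there. Over all genes tested, 21.4% were highest in that library. The Paneth genes summed to 32885 FPKM in WT replicate 2 against 9995 to 15135 FPKM in the other libraries. The goblet genes summed to 10070 FPKM there against 3537 to 7259, and the absorptive genes to 5786 against 13230 to 17330. Genes of gut regions were picked after their values were seen, and Apoa1 and Sis among them are also absorptive genes counted above. The 4 small intestine genes read were all lowest in WT replicate 2, summing to 3264 FPKM against 5537 to 9581. Gata4 was at 8.25 FPKM there against 40.36 to 51.44, and Lct at 26.23 against 85.19 to 154.53. The 4 colon genes summed to 5.13 FPKM there against 0.19 to 1.46, and the 1 library with Hoxb13 was this one. Most of that sum was Car1, at 3.81 FPKM, while Aqp8 was higher in WT replicate 1 (0.59 FPKM) than in WT replicate 2 (0.28 FPKM). Their part in the values of the tuft cell genes was not tested. In bulk tissue, fewer tuft cells and less RNA per tuft cell cannot be told apart.

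**Figure D1:**
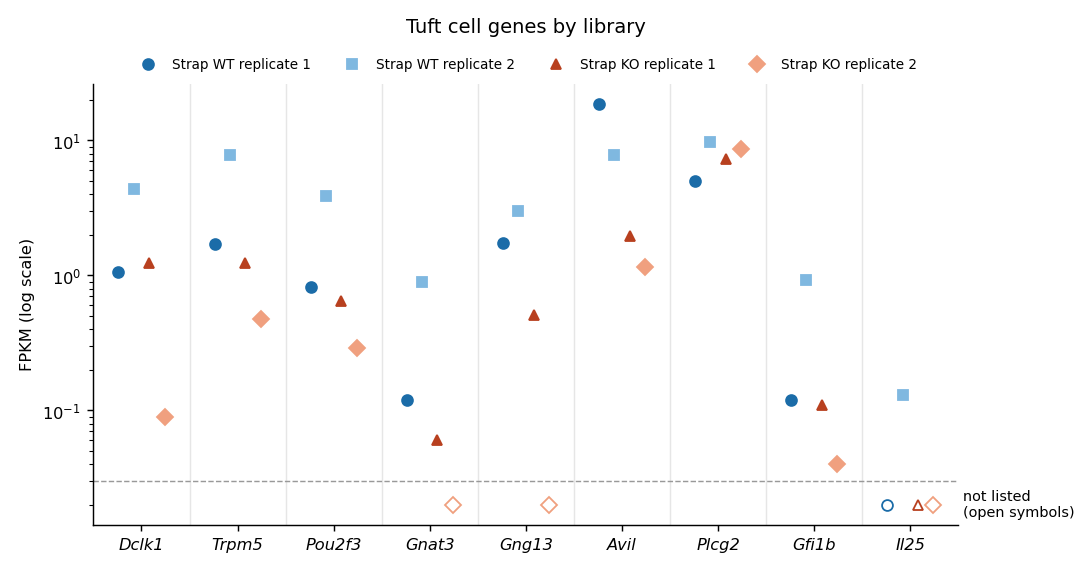
FPKM of the 9 listed tuft cell genes (log axis) in each of the 4 libraries, with 1 symbol per library and open symbols below the dashed line for genes not listed. WT replicate 2 is highest for every gene plotted except Avil, which is highest in WT replicate 1, and KO replicate 2 is lowest or not listed for every gene except Plcg2.

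Among the transcription factors, Pou2f3, on chromosome 9 from 43123927 to 43205755, had expected counts of 31 and 145 in WT and 25 and 10 in KO. Its level was 0.82 and 3.86 FPKM in WT and 0.65 and 0.29 FPKM in KO. Both KO values were under both WT values, but WT replicate 1 was closer to KO replicate 1 than to WT replicate 2. The log2 fold change was -2.25 (SE 0.91, edgeR adjusted p = 0.316), and without WT replicate 2 it was -0.71 (adjusted p = 0.784).

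Gfi1b, a zinc finger repressor gene also known from platelet and red cell formation, lies on chromosome 2 from 28609450 to 28621982. It had 3 and 24 counts in WT and 3 and 1 in KO, or 0.12 and 0.93 FPKM against 0.11 and 0.04. Only WT replicate 2 stood out: the exact 95% Poisson interval of its 24 counts was 15.4 to 35.7, against 0.619 to 8.77 for 3 counts. Such intervals cover counting error only. The gene was too low to be tested. The 8 megakaryocyte and erythroid genes summed to 166 and 66.8 FPKM in WT and 4.31 and 95.7 in KO, nearly all of it from the globin genes Hba-a1 and Hbb-bs. Of the other 6 genes, Pf4, Ppbp, Gp9 and Gp1ba were highest in WT replicate 1, and Itga2b and Klf1 in KO replicate 1. Their part in the level of Gfi1b was not tested.

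In taste transduction, gustducin is formed by the alpha subunit gene Gnat3 and a beta-gamma pair to which Gng13 contributes the gamma subunit. Gnat3, on chromosome 5 from 17962570 to 18019668, had 2 and 15 counts in WT, 1 count in KO replicate 1 and no entry for KO replicate 2. Its level was 0.12 and 0.89 FPKM in WT and 0.06 FPKM in KO replicate 1. The interval of the 15 counts, 8.4 to 24.7, lay above that of the 2 counts, 0.242 to 7.22, so the WT libraries differed from each other beyond counting error.

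Gng13, on chromosome 17 from 25717172 to 25719102, had 10 and 17 counts in WT, 3 counts in KO replicate 1 and no entry for KO replicate 2. This corresponds to 1.73 and 3.01 FPKM in WT and 0.51 FPKM in KO replicate 1. The intervals of WT replicate 1 (4.8 to 18.4 counts) and KO replicate 1 (0.619 to 8.77), the nearest pair, overlapped. Such an overlap is not a test of a difference, and Gng13 was too low to be tested. In GENCODE, 399 of the 773 exonic bases of Gng13 overlap exons of Chtf18 on the opposite strand, and strandedness is not given, so reads of the pair cannot be told apart there. Chtf18 was at 3.61 and 6 FPKM in WT and 5.34 and 4.9 FPKM in KO.

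Trpm5, on chromosome 7 from 143071529 to 143094642, encodes the calcium-activated cation channel at the end of the pathway. It had 114 and 514 counts in WT and 84 and 29 in KO, or 1.71 and 7.79 FPKM in WT and 1.24 and 0.48 FPKM in KO. WT replicate 2 was 4.56 times WT replicate 1, and the KO values were under both WT values. The log2 fold change was -2.40 (SE 0.84), with an adjusted p of 0.275 in edgeR and 0.0437 in DESeq2. Without WT replicate 2 the log2 fold change was -0.90 (edgeR adjusted p = 0.58). On the opposite strand Tssc4 shares 220 of the 6398 exonic bases of Trpm5 in GENCODE and stood at 9.45 and 13.11 FPKM in WT and 16.15 and 11.56 FPKM in KO.

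Dclk1, a doublecortin-like kinase gene on chromosome 3 from 55242303 to 55539068, is the most used tuft cell marker. It had 119 and 513 expected counts in WT against 145 and 10 in KO. The level was 1.07 and 4.4 FPKM in WT and 1.24 and 0.09 FPKM in KO, so the groups overlapped: KO replicate 1 was above WT replicate 1. Replicates differed by 4.11 times within WT and by 13.8 times within KO. The log2 fold change of -1.95 (SE 1.18, edgeR adjusted p = 0.466) became -0.51 without WT replicate 2, -1.05 without KO replicate 2 and -4.89 without KO replicate 1, for adjusted p values of 0.872, 0.624 and 0.779. The genes of enteric neurons and glia, cells in which Dclk1 can also be active, summed to 5.37 and 1.77 FPKM in WT and 0.78 and 1.12 FPKM in KO. Ret was the largest part of both WT sums, at 3.75 and 0.91 FPKM in WT and 0.24 and 0.29 FPKM in KO. Among those 8 genes Sox10 was listed in no library and Elavl4 in WT replicate 2 alone. Their part in the level of Dclk1 was not tested.

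Avil encodes advillin, an actin-binding protein of the villin family found in the microvilli of tuft cells. On chromosome 10 from 127000065 to 127020994, it was the member with the smallest p. It had 859 and 355 counts in WT and 92 and 48 in KO, or 18.7 and 7.83 FPKM in WT and 1.97 and 1.15 FPKM in KO. Both KO libraries were well below both WT libraries, and the higher WT library was replicate 1, unlike every other listed member. The log2 fold change was -3.03 (SE 0.54), a fitted WT level 8.17 times that of KO, with an adjusted p of 0.144 in edgeR and 4.07e-06 in DESeq2. Without WT replicate 2 the log2 fold change was -3.51, and without WT replicate 1 it was -2.28. With the replicate number as a block, which also separates the libraries with Xist from those with Ddx3y, it was -2.98 (edgeR adjusted p = 0.00986). A crossed block, added after seeing the data, pairs each WT library with the KO library of the other number. With it the log2 fold change of Avil was -2.95 (edgeR adjusted p = 0.0716). In GENCODE, 165 of 3398 exonic bases of Avil overlap Tsfm on the opposite strand. Tsfm was at 14.25 and 15.42 FPKM in WT and 33.73 and 26.66 FPKM in KO, so it was higher where Avil was lower. The enteric neuron and glia genes given with Dclk1 also had their highest sum in WT replicate 1 (5.37 FPKM). Their part in the level of Avil was not tested.

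Plcg2, on chromosome 8 from 117498275 to 117635142, encodes a phospholipase C that acts below tyrosine kinases in tuft cells and in B and myeloid cells. It had 328 and 636 counts in WT and 484 and 515 in KO, or 4.99 and 9.79 FPKM in WT and 7.25 and 8.59 FPKM in KO. The KO libraries lay between the WT libraries. The log2 fold change was 0.13 (SE 0.34, edgeR adjusted p = 0.88), and it was 0.71 without WT replicate 2 and -0.29 without WT replicate 1 (adjusted p = 0.307 and 0.784). B cell genes summed to 1.07 and 1.09 FPKM in WT and 1.82 and 3.86 FPKM in KO over 6 genes, and macrophage genes to 10.8 and 9.06 FPKM in WT and 13.6 and 15.8 FPKM in KO over 6 genes. Cd14 made up most of the macrophage sum, at 5.52 and 7.42 FPKM in WT and 11.41 and 12.48 FPKM in KO, and Cd79b was at 0.76 and 0.52 in WT and 1.74 and 1.32 in KO, so both were higher in both KO libraries. Csf1r, C1qa and C1qb were highest in WT replicate 1 (0.44, 1.14 and 0.84 FPKM) and overlapped between genotypes. Cd68 overlapped at 1.37 to 2.75 FPKM, Pax5 was listed in WT replicate 2 alone and Adgre1 was at most 0.06 FPKM. Their part in the level of Plcg2 was not tested.

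Il25, on chromosome 14 from 54932695 to 54935837, had 2 counts in WT replicate 2, which is 0.13 FPKM, and was not listed in the other libraries. Sh2d6, an SH2 domain gene placed on chromosome 6 from 72513641 to 72534206 by RefSeq, was listed in no library. Whether the annotation used by the authors held Sh2d6 was not given in the sources used here.

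Of the 5 tested members, edgeR called 0 over all genes, where 0.00783% of genes were called in either direction (1 gene, the interferon-induced Ifi44). At an unadjusted p under 0.05 there were 3 members lower in KO, Avil, Trpm5 and Pou2f3, where 8.69% of all genes tested were lower by that rule. DESeq2 called 2 lower, Avil and Trpm5, with 3.32% of all genes called lower. limma on log2(FPKM + 1) called 0 of 6 members above its own filter. The KO values were both under the WT values in 3 of the 5, against 24.6% of all genes tested. Since a low gene passes the filter through the group where it is high, these shares describe the tested members and not all 10.

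**Figure D2:**
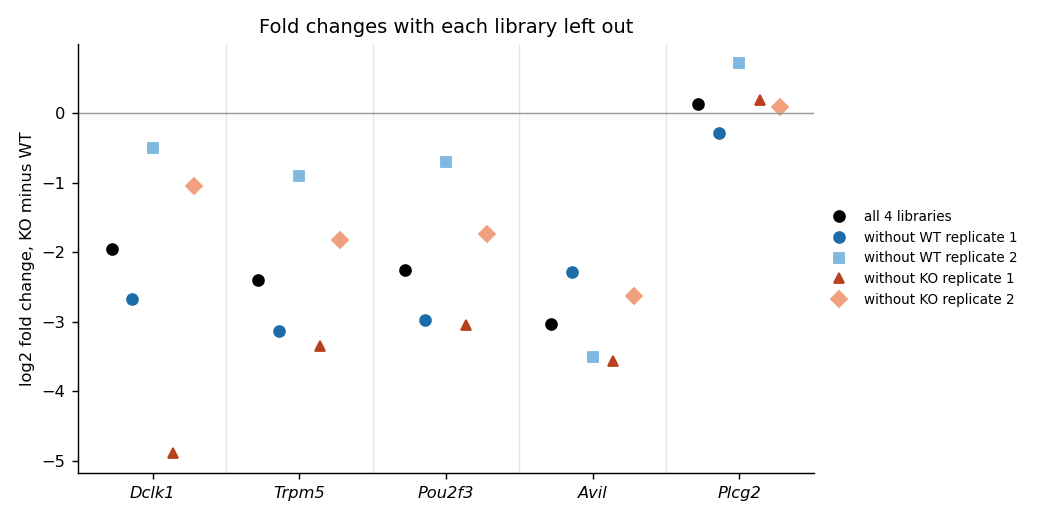
Log2 fold change (KO minus WT) of the 5 tested tuft cell genes with all 4 libraries and with each library left out in turn. Dclk1, Trpm5 and Pou2f3 move to -0.51, -0.90 and -0.71 without WT replicate 2, while Avil stays between -3.56 and -2.28 and Plcg2 crosses 0.

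Other genes of tuft cells were taken from 5 lists arranged by role, with 67 symbols in all, of which 61 were listed and 50 tested. In KO 42 of the 50 had lower and 8 higher values, where 49.7% of all genes tested were lower. The median log2 fold change was -1.15, against 0.00 over all genes tested. edgeR called 0 of them. At an unadjusted p under 0.05, 17 were lower and none higher, with 8.69% and 7.08% of all genes tested, and DESeq2 called 8, all lower, with 3.32% of all genes called lower. The KO values were both under the WT values in 26 of the 50, against 24.6% of all genes tested. The highest value was in WT replicate 2 for 35 of the 50 and the lowest in KO replicate 2 for 26, against 21.4% and 19.4% of all genes tested. Without WT replicate 2 the counts were 35 lower and 15 higher, the median was -0.47 against 0.01 over all genes, and edgeR called 2, Krt23 and Tuba1a, both lower, where it called 2.21% of all genes tested as lower. As with the members, a low gene passes the filter through the group where it is high. The counts here and in each list below therefore describe the tested genes and not all 67 symbols. Some of these genes are also active in other epithelial cells or in leukocytes.

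The list of taste transduction genes and receptors had 7 tested members, 6 lower and 1 higher, and the median log2 fold change of -1.54 became -0.47 without WT replicate 2. Itpr2, a gene for a calcium release channel, was at 2.7 and 2.93 FPKM in WT and 1.05 and 0.75 FPKM in KO (log2 fold change -1.61, SE 0.30, edgeR adjusted p = 0.157, DESeq2 0.000932). In Itpr2 the WT libraries were alike, and both KO libraries were lower. Rgs2, a regulator of G protein signalling, was at 7.83 and 16.91 FPKM in WT and 2.85 and 5.61 in KO, and Plcb2, the phospholipase C of taste cells, at 0.42 and 1.65 in WT and 0.09 and 0.32 in KO. Their edgeR adjusted p values were 0.249 and 0.307, and without WT replicate 2 the log2 fold changes went from -1.54 and -2.34 to -0.86 and -1.03. Rgs13 overlapped between genotypes, with 1.89 and 10.07 FPKM in WT and 2.18 and 0.35 FPKM in KO (log2 fold change -2.14, and -0.47 without WT replicate 2). The succinate receptor gene Sucnr1, chosen after its values were seen, had 33 counts (1.44 FPKM) in WT replicate 2 and was not listed in the other libraries. Of 6 Tas2r symbols, the bitter taste receptor genes, 4 were listed in no library.

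Lipid mediators are made by tuft cells from arachidonic acid, and all 6 tested genes of this list were lower in KO, each with its highest value in WT replicate 2 on the CPM scale. Ptgs1, the cyclooxygenase 1 gene, was at 1.08 and 2.02 FPKM in WT and 0.11 and 0.05 FPKM in KO (log2 fold change -4.13, SE 0.79, edgeR adjusted p = 0.159, DESeq2 0.00111). Alox5ap, which presents arachidonic acid to 5-lipoxygenase, was at 2.67 and 9.45 in WT and 1.58 and 0.77 in KO. Hpgds, the prostaglandin D synthase gene, was at 0.48 and 1.05 in WT and 0.08 and 0.31 in KO, and Ltc4s, the leukotriene C4 synthase gene, at 6.67 in both WT libraries and 3.5 and 1.97 in KO. Their edgeR adjusted p values lay between 0.28 and 0.38. The median log2 fold change of the list, -2.15, was -1.14 without WT replicate 2, and that of Alox5ap went from -2.31 to -1.12 and that of Hpgds from -1.99 to -1.30. Alox5 itself, chosen after its values were seen, overlapped, with 0.37 and 3.36 FPKM in WT and 0.53 and 0.05 FPKM in KO. Chat, which makes acetylcholine, had 20 counts in WT replicate 2 and at most 4 in the others.

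Of 15 signalling genes 11 were lower and 4 higher, with a median of -0.84 that became -0.11 without WT replicate 2, when 9 were lower. Pik3cg, a phosphoinositide 3-kinase gene, was at 0.77 and 1.87 FPKM in WT and 0.2 and 0.42 in KO, and Sh2d7, another SH2 domain gene, at 1.77 and 7.92 in WT and 1.23 and 0.32 in KO. Ptpn6, the SHP-1 phosphatase gene, was at 12.44 and 11.57 in WT and 6.76 and 8.99 in KO. The edgeR adjusted p values of these 3 genes lay between 0.256 and 0.322. Without WT replicate 2 the log2 fold change of Pik3cg went from -2.07 to -1.25 and that of Sh2d7 from -2.56 to -1.10. Many genes of this list are also active in leukocytes. T and natural killer cell genes summed to 49.5 and 32.9 FPKM in WT and 27.6 and 290 FPKM in KO over 8 genes, and all 7 tested were highest in KO replicate 2. Their part in the signalling list was not tested.

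Transcription factor genes of the lineage had 6 lower and 1 higher of 7 tested, and 4 lower and 3 higher without WT replicate 2. The median log2 fold change was -0.48, and -0.34 without that library. 1810046K07Rik was at 4.9 and 4.08 FPKM in WT and 1.27 and 1.42 FPKM in KO (log2 fold change -1.70, SE 0.49, edgeR adjusted p = 0.238), with alike replicates in each genotype. Spib was at 1.69 and 6.11 in WT and 1.26 and 0.6 in KO (edgeR adjusted p = 0.297), with a log2 fold change of -0.77 without WT replicate 2. Sox9 and Sox4, which are not limited to tuft cells, had log2 fold changes of -0.48 and -0.59 (adjusted p = 0.461 and 0.484). The homeobox genes Hmx2 and Hmx3, named after their values were seen, had 24 and 26 counts in WT replicate 2 and at most 5 in any other library.

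Surface and structural genes had 13 lower and 2 higher of 15 tested, and in 10 of them the KO values were both under the WT values, as in 24.6% of all genes tested. Tuba1a, an alpha-tubulin gene, was at 24.04 and 13.43 FPKM in WT and 5.32 and 3.86 in KO, and Cd24a, a surface glycoprotein gene, at 218.22 and 250.78 in WT and 108.57 and 111.46 in KO. Kctd12 was at 3.81 and 12.77 in WT and 1.57 and 1.08 in KO. Their log2 fold changes were -1.98, -1.06 and -2.59 (SE 0.41, 0.23 and 0.61), with edgeR adjusted p values of 0.18, 0.187 and 0.204, and DESeq2 called all 3. Without WT replicate 2 the median of the list went from -1.10 to -0.78, Tuba1a had a log2 fold change of -2.32 (edgeR adjusted p = 0.0285), Cd24a one of -0.94 (0.207) and Kctd12 one of -1.45 (0.155). Nebl, the nebulette gene, was at 0.71 and 0.47 FPKM in WT and at 0.04 FPKM in KO replicate 1, with no entry for KO replicate 2 (edgeR adjusted p = 0.215). Siglecf, chosen after its values were seen, followed WT replicate 2 with 4.49 FPKM against 0.12 to 0.54 FPKM in the other libraries.

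**Figure D3:**
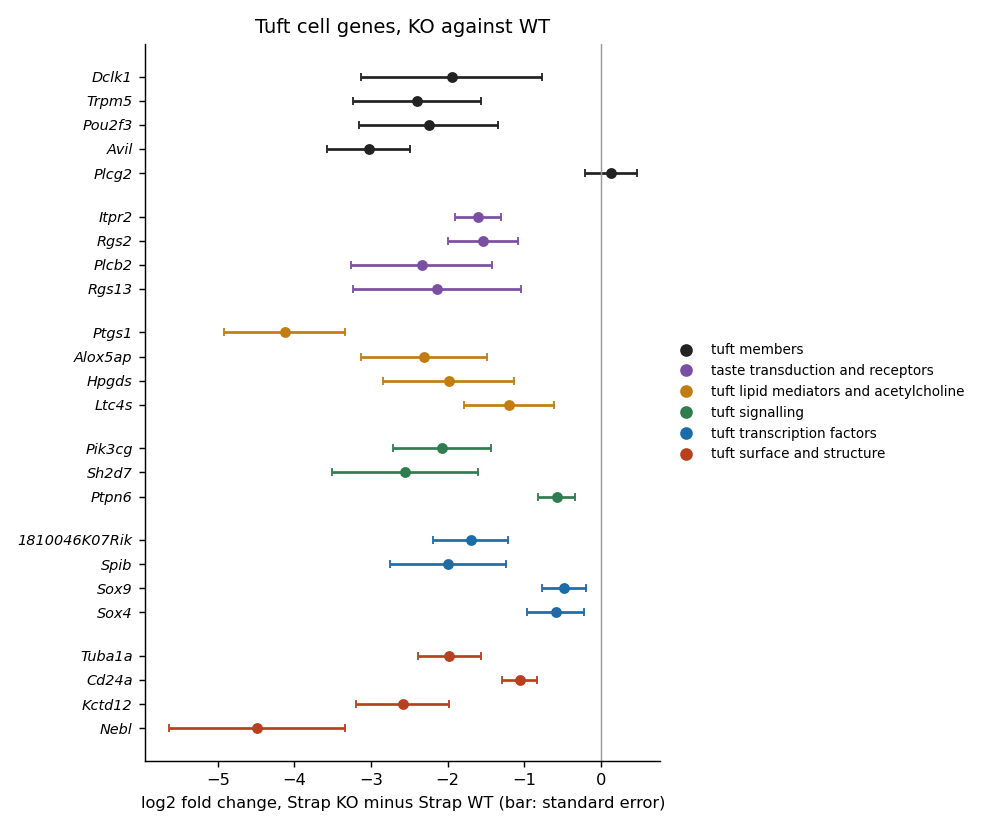
Log2 fold change (KO minus WT) with its standard error for the 5 tested members and for the genes with the smallest p in each of 5 lists of tuft cell genes (4 per list, 3 for signalling), coloured by list. All plotted genes except Plcg2 lie below 0, from -4.49 for Nebl to -0.48 for Sox9, and none passed the edgeR threshold.

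The type 2 immune circuit that tuft cells feed gave 3 lower and 4 higher of 7 tested genes, with a median log2 fold change of 0.17, which turned to -0.16 without WT replicate 2. Il13 and Il4, the cytokines of the circuit, were listed in no library. Il17rb, which encodes a receptor chain for interleukin 25, was at 1.36 and 2.2 FPKM in WT and 0.83 and 0.82 FPKM in KO (-1.07, edgeR adjusted p = 0.41). Il13ra1, an interleukin 13 receptor gene, was at 30.76 and 35.66 FPKM in WT and 47.84 and 49.89 FPKM in KO, so both KO libraries were higher (0.59, SE 0.20, adjusted p = 0.273). Stat6, the factor activated below that receptor, had a log2 fold change of 0.18 (0.688). Retnlb, a goblet cell gene induced by interleukin 13, was at 0.79 and 5.44 FPKM in WT and at 1.17 FPKM in KO replicate 1, with no entry for KO replicate 2 (-2.27, 0.502), and its log2 fold change was -0.30 (0.954) without WT replicate 2 and -7.94 (0.779) without KO replicate 1.

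Paralogues of the members were also read, since several are far more abundant in the epithelium. Of 27 paralogue symbols 21 were tested, 14 lower and 7 higher, with 0 called by edgeR. At an unadjusted p under 0.05, 9 were lower (8.69% of all genes tested), and DESeq2 called 2 lower, Scin and Gnai1 (3.32%). Sh2d7, Gnai2 and Gfi1 are also in the lists by role, so the sets are not separate. Gnai1 was at 1.16 and 0.46 FPKM in WT and 0.07 FPKM in KO replicate 2, with no entry for KO replicate 1. Its log2 fold change was -4.51 (SE 1.22, edgeR adjusted p = 0.226, DESeq2 0.033). Trpm4 stood at 29.58 to 56.45 FPKM in the 4 libraries, above every value of Trpm5, and Gnai2, which encodes an inhibitory G protein alpha subunit, at 117.1 to 160.03 FPKM. Vil1, the villin gene, was at 594.73 and 619.48 FPKM in WT and 536.36 and 714.69 FPKM in KO (log2 fold change 0.07, edgeR adjusted p = 0.934). Scin, which encodes the related actin-severing protein scinderin, was at 48.84 and 87.25 in WT and 16.78 and 22.67 in KO (-1.76, SE 0.33, adjusted p = 0.15, DESeq2 8.48e-05). Dclk3 was at 0.41 and 1.98 FPKM in WT and 0.22 and 0.08 in KO, and Dclk2 at 0.28 and 0.61 in WT and 0.05 and 0.12 in KO (adjusted p = 0.273 and 0.289). The counting intervals of the nearest WT and KO libraries overlapped in both: 13.8 to 33.3 counts against 6.2 to 21 for Dclk3, and 9.9 to 27.2 against 2.81 to 14.4 for Dclk2. Gfi1, the paralogue of Gfi1b active in secretory progenitors, was at 1.97 and 3.92 in WT and 2.66 and 3.84 in KO (0.14, 0.907). Plcg1 also overlapped, with 7.2 and 3.98 FPKM in WT and 2.64 and 4.8 FPKM in KO.

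Other secretory lineages are given as a description without a test. Enteroendocrine genes summed to 59.1 and 63.6 FPKM in WT and 63.1 and 110 FPKM in KO, a sum carried by Chga and Chgb, at 64.02 and 38.89 FPKM in KO replicate 2. Of the 8 enteroendocrine genes 5 were lower and 3 higher in KO (median log2 fold change -0.43). The KO libraries differed: 4 genes were highest in KO replicate 2 and 6 were lowest in KO replicate 1. Over all genes tested these shares were 16.9% and 29.4%. Goblet and Paneth genes shared the high WT replicate 2, but goblet genes were lowest in WT replicate 1 for 6 of 7 genes. All 6 Paneth genes were lower in KO (median log2 fold change -0.79), where 49.7% of all genes tested were lower. Of these 6, 5 were lowest in KO replicate 2, against 19.4% of all genes tested. Among the 7 goblet genes 4 were lower and 3 higher in KO. The tuft members themselves summed to 29.3 and 38.6 FPKM in WT and 13 and 10.6 FPKM in KO, with Avil the largest part in WT replicate 1 and Plcg2 the largest in both KO libraries.

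**Figure D4:**
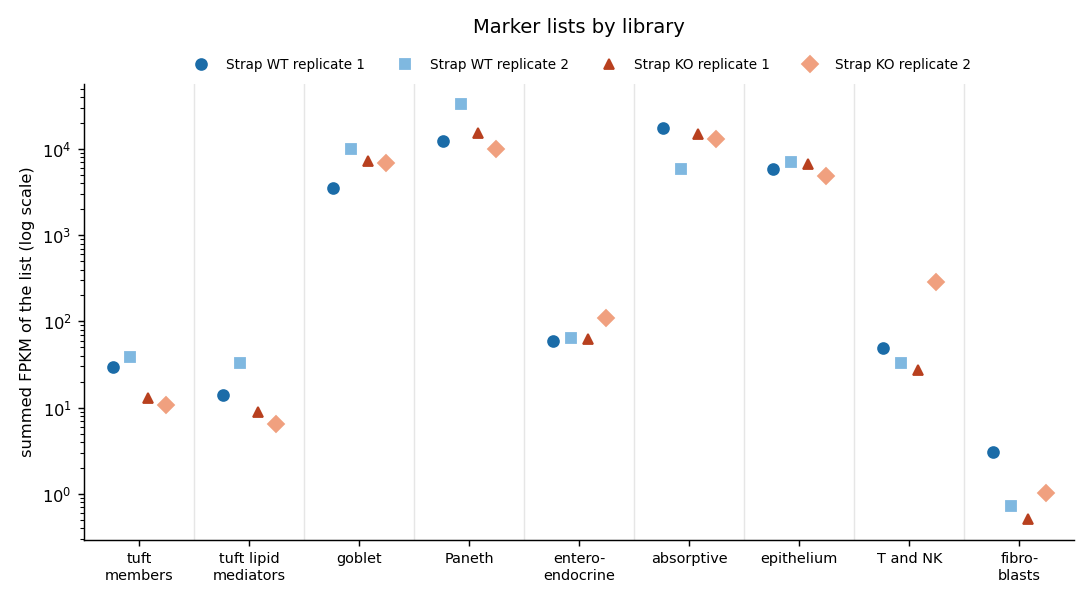
Summed FPKM (log axis) of marker lists in each of the 4 libraries, with 1 symbol per library. The tuft members stand at 29.3 and 38.6 FPKM in WT and at 13 and 10.6 FPKM in KO, Paneth genes stand at 32885 FPKM in WT replicate 2, and T and natural killer cell genes at 290 FPKM in KO replicate 2.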

How the data were processed

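Polyadenylated RNA of the 4 libraries was sequenced in pairs (BGISEQ-500), per the labels' protocols. RSEM 1.2.12, Bowtie2 2.2.5 and mm10 appear in the submitters' processing notes, without their role or order. Each deposited table gives RSEM expected counts and FPKM per gene, per the file headers, with the transcript length of each gene in that library. The lowest FPKM listed is 0.01, so an absent gene is called not listed and gets no upper limit. In each library 1 row without a gene, at most 0.000233% of the counts, was left out.

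The tables were joined on gene identifiers (pandas 2.3.3). Expected counts were rounded, with 0 for genes not listed, and KO was compared with WT across all genes with the edgeR 4.0.16 quasi-likelihood test in R 4.3.3, with TMM scaling, the filterByExpr filter, genotype as the only term and Benjamini-Hochberg adjustment (threshold 0.05). All 4 libraries entered. CPM is the count scaled to a common library total with TMM factors, and each SE is that of the log2 fold change. An exact permutation test of 2 against 2 libraries cannot go below p = 0.333 and was not used. The test was checked on simulated counts of the same design, with 10 false calls among 12560 genes. There 33 of 50 genes changed 4-fold and 4 of 49 changed 2-fold were called. The simulation took the fitted spread of each gene as its true spread, so these rates need not hold for the libraries. In the libraries Strap, with a log2 fold change of -2.57, was not called (edgeR adjusted p = 0.0942). DESeq2 1.42.0 and limma 3.58.1 were among the alternatives.

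The members and all lists were chosen with earlier results of these data known. From each list of tuft cell genes by role, the 4 with the smallest edgeR p were named, except 1 signalling gene that is not reported here. Genes picked after looking at their values are marked so, and the small intestine and colon genes, Xist and Ddx3y were picked in that way too. Motifs were chosen after several shorter forms had been looked at. Coordinates and promoters come from RefSeq (GRCm38.p6), and 10 of 10 members were found there.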

Additional observations from a re-analysis of the deposited data

How the results depend on the processing

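edgeR called 1 gene in all (higher in KO). Library size alone gave 0, scaling to 6 epithelial genes 13 (11 higher and 2 lower), no filter 27 (19 and 8), DESeq2 657 (233 and 424), and limma gave 0 on log2(FPKM + 0.1) and 0 on log2(FPKM + 1) without a filter. Leaving out 1 library gave from 0 to 372 calls, the 372 (72 higher and 300 lower) without WT replicate 2 and 0 without each of the others. Of the tuft members DESeq2 called 2, Avil and Trpm5, and leaving out 1 library gave from 0 to 1 calls, the 1 being Avil without WT replicate 2. With a library left out, 1 group holds a lone sample that is assumed to vary like the other group. Scaling to the epithelial genes put the median over all genes tested at a log2 fold change of 0.18, and the 4 lower members stayed below 0. The log2 fold change of Plcg2 ranged from -0.29 without WT replicate 1 to 0.71 without WT replicate 2. Of 74 recomputed values for the members that -0.29 was the 1 that changed sign, and 4 passed the threshold. The causes of these changes were not tested.

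With the replicate number as a block, edgeR called 116 genes (46 higher and 70 lower) and 1 member, Avil (adjusted p = 0.00986). The block also separates the libraries with Xist from those with Ddx3y, so it stands for that split as well. The labels do not say that a number marks a shared animal or batch, and deviations of same-numbered libraries had a correlation of -0.123 across genes. A crossed block, added after seeing the data, called 164 genes and 0 members. Counts under about 30, as in Gnat3, Gng13, Gfi1b and Il25, limit what these libraries can show.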

Other observations

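Not every tuft cell gene followed WT replicate 2. Avil, Tuba1a, Nebl, 1810046K07Rik and Krt23, chosen after their values were seen, were highest in WT replicate 1 and lower in both KO libraries than in both WT libraries. Krt23, a keratin gene, was at 39.83 and 7.41 FPKM in WT and 2.81 and 3.18 FPKM in KO (log2 fold change -2.95, SE 0.78, edgeR adjusted p = 0.222, DESeq2 0.00152), and edgeR called it without WT replicate 2. Krt18, a keratin gene of simple epithelia, stood at 450.85 and 404.9 FPKM in WT and 246.84 and 210.37 FPKM in KO (-0.86, SE 0.26, edgeR adjusted p = 0.251, DESeq2 0.0205). Of the 6 epithelial genes, Krt18 among them, 5 were lower and 1 higher in KO, where 49.7% of all genes tested were lower. Cdh1 was at 257.31 and 252.66 FPKM in WT and 207.99 and 220.69 in KO. Epcam overlapped between genotypes (777.08 and 1019.25 FPKM in WT, 852.48 and 826.43 in KO). Fabp1, a fatty acid-binding protein gene of absorptive cells, was at 1907.07 and 87.31 FPKM in WT and 3568.59 and 2107.38 FPKM in KO, so it was lowest in the library where most tuft cell genes were highest. The transcript length that RSEM assigned to Dclk1, a mean weighted over its transcripts, was 7231 and 7679 bases in WT and 7535 and 7725 bases in KO, the last of these from 10 counts.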
